A study of Arachis hypogaea with 3 samples.

Results

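The chromatin modifiers described here are the peanut (Arachis hypogaea) transcript sequences whose best protein match was described as a histone deacetylase, histone acetyltransferase, histone-lysine or histone methyltransferase, histone demethylase, SET domain protein, polycomb protein, chromatin remodelling protein, cytosine-5 DNA methyltransferase or argonaute. The rule reads these words and no measured value, and 166 of 83579 reference sequences met it. Of these, 124 were assembled unigenes and 42 were public peanut sequences. They fell into 9 classes by the words of the description, with 60 histone-lysine methyltransferases and SET domain proteins, 47 chromatin remodelling proteins, 24 histone deacetylases, 11 histone acetyltransferases, 7 argonaute sequences, 6 DNA cytosine methyltransferases, 6 polycomb-named sequences, 3 HD2-type histone deacetylases and 2 histone demethylases.

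RNA was sequenced from gynophores, the stalks that carry the fertilized peanut ovary into the soil, of the cultivar Luhua 14 grown on a farm. The S1 library came from aerial gynophores 3 to 5 cm long, green or purple in colour. The S2 library came from white gynophores after about 3 days underground, before the ovary swelled, and the S3 library from dark-grown gynophores with pods of 2 to 3 mm. In all of them the 1 cm at the tip was cut off for RNA, poly(A) RNA was captured, and 1 library was made per stage, so differences between stages could not be checked against replicates, and the intervals given here cover counting error only.

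Chromatin modifiers set how tightly DNA is wrapped around histones and which genes can be read. Acetyltransferases add acetyl groups that loosen the packing and deacetylases take them off, SET domain proteins methylate histone lysines and demethylases reverse this, and remodelling ATPases slide or evict nucleosomes. DNA methyltransferases mark cytosines, and argonautes carry small RNAs that silence transcripts or guide DNA methylation. In plants these proteins take part in the switches from vegetative growth to flowering and seed development, and in the early growth of embryo and endosperm.

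The 3 libraries held 20734295 uniquely counted reads, of which 33.3% were from S1, 32.2% from S2 and 34.5% from S3. All 166 chromatin modifiers had at least 1 read, 156 of them in every library, and 133 had at least 30 reads over the libraries. Levels are given as RPKM (reads per kilobase of sequence, scaled to 1000000 counted reads). The mean RPKM of the modifiers over the libraries had a median of 11.9, against 9.41 over all annotated sequences, and 97 of them (58.4%) reached a mean of 10, against 48.1% of annotated sequences. The sequences were mostly short, with a median length of 498.5 bases and a range from 151 to 1838, and the 166 sequences matched 101 proteins. Members that match the same protein may be parts of 1 transcript or close copies, and reads shared between copies were not counted for either.

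The tissue sampled changed between the libraries. Reads of the green tissue markers, among them chlorophyll a/b binding proteins, photosystem I and photosystem II proteins and the small subunit of Rubisco, summed to 3868 RPM (reads per 1000000 counted reads) in S1 gynophores, 215 in S2 and 373 in S3. The phloem markers summed to 1256, 855 and 515, and the secondary wall markers to 1629, 1625 and 450. Within the phloem list, sieve element sequences had 1209, 822 and 443, but phloem protein had 46.7, 32.7 and 71.9. Within the secondary wall list, laccase had 665, 444 and 57.5 and cellulose synthase A had 483, 405 and 195. Caffeic acid sequences were instead highest in S2, at 424, 643 and 144, as were cinnamyl sequences, at 56.4, 134 and 54.0. The seed and embryo markers summed to 615, 587 and 318 RPM, of which late embryogenesis proteins took 417, 253 and 129, while arachin had 64.4, 64.1 and 66.7, oleosin 25.9, 28.2 and 33.2, and conglutin 108, 241 and 89.2. The words legumin, vicilin, chlorophyll a-b and phloem lectin matched no sequence at all. The part that these shifts had in the values below was not tested, and in such bulk samples fewer cells of a type and less RNA per cell cannot be told apart.

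Summed over all members, the chromatin modifiers took 1756 RPM in S1 gynophores, 1701 in S2 and 2161 in S3. The S3 total was 1.27 times that of S2 (95% Clopper-Pearson interval of the read ratio 1.24 to 1.30) and 1.23 times that of S1 (1.20 to 1.26). Counted singly, 33 of 166 modifiers were at least 2 times higher in RPKM + 1 in S3 than in S2 (19.9%, against 18.6% of all sequences with a read), while 6 were at least 2 times lower (3.61%, against 11.4%). Among annotated sequences the shares were 14.7% and 12%. The median modifier stood 0.47 higher in S3 than in S2 on the log2 scale of RPKM + 1, against 0.18 over all sequences.

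Between S1 and S2 few modifiers differed by 2 times. Only 2 were higher in S2 (1.2%, against 9.03% of all sequences), and neither had an interval above 1, while 13 were lower (7.83%, against 9.19%). The shares of annotated sequences were 8.34% and 8.35%. The median log2 ratio of S2 to S1 was -0.17 over the modifiers and 0 over all sequences. From S1 to S3, 23 modifiers were higher (13.9%, against 21%) and 16 were lower (9.64%, against 13.9%), with shares of 17.6% and 15% among annotated sequences. The medians of the modifiers and of all sequences were both 0.16. Large differences in either direction were thus less common among the modifiers than among all sequences in that comparison, which was not tested.

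The gain in S3 depended on the scale of the libraries. Rescaling by the median of ratios moved the median of all sequences to 0 between S2 and S3, and 18 modifiers were then higher and 10 lower, as they were after rescaling by the upper quartile. These were 10.8% and 6.02% of the modifiers, against 14% and 14.8% of all sequences with the first rescaling and 13.8% and 15.2% with the second, so that the modifiers then lay below the background in both directions. Relative to all sequences, the median modifier lay 0.30 higher in S3 than in S2 with the deposited values, 0.27 with the first rescaling and 0.25 with the second. From S1 to S3 the rescaled counts were 18 higher and 20 lower (10.8% and 12%, against 17.1% and 16.8% of all sequences), or 19 and 19 (11.4% and 11.4%, against 17.4% and 16.5%). Every ratio below can be read with this in mind, since the median-of-ratios rescaling multiplies a ratio of S3 to S1 by 0.875, of S3 to S2 by 0.853 and of S2 to S1 by 1.03.

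**Figure D1:**
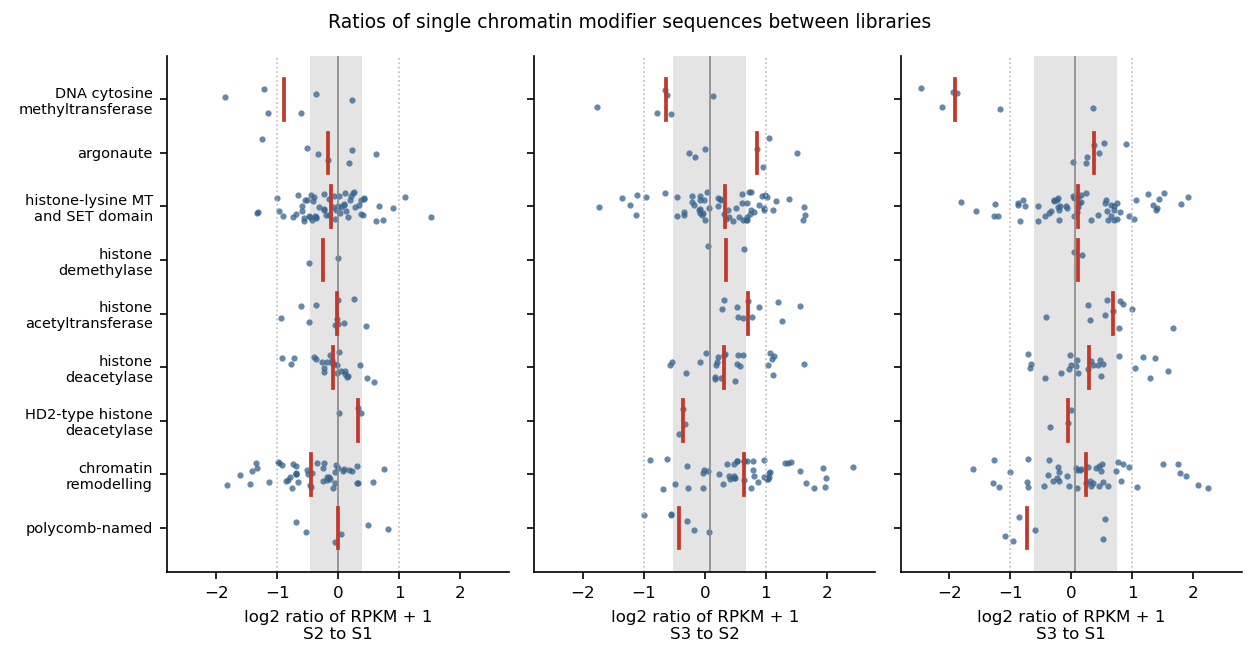
Log2 ratio of RPKM + 1 between libraries for each of the 166 chromatin modifiers (blue points, spread vertically for clarity), by class, with the class median in red. The grey band spans the middle of the annotated sequences, from the lower to the upper quartile, the grey line is their median and dotted lines mark 2 times. Of the DNA cytosine methyltransferases 5 of 6 lie past 2 times lower in S3 than in S1, against 13.9% of all sequences. The chromatin remodelling median lies at -0.44 from S1 to S2 and at 0.65 from S2 to S3.

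The classes did not move as 1 group. From S1 to S3 the summed reads of histone acetyltransferases grew to 1.85 times (1.72 to 1.98) and those of chromatin remodelling proteins to 1.49 times (1.42 to 1.56). Histone-lysine methyltransferases and SET domain proteins stood at 1.17 times (1.12 to 1.23), which became 1.03 after median-of-ratios rescaling, and argonautes at 1.15 times (1.06 to 1.24), which became 1.00. The sum of DNA cytosine methyltransferases was 0.789 of its S1 value in S3 (0.710 to 0.876). Histone deacetylases were at 0.956 (0.891 to 1.03) and histone demethylases at 1.06 (0.865 to 1.31). HD2-type deacetylases were at 0.970 (0.892 to 1.06) and polycomb-named sequences at 0.843 (0.691 to 1.03). With the deposited values these intervals hold 1. Median-of-ratios rescaling put the same ratios, in this order, at 0.837, 0.931, 0.849 and 0.738.

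**Figure D2:**
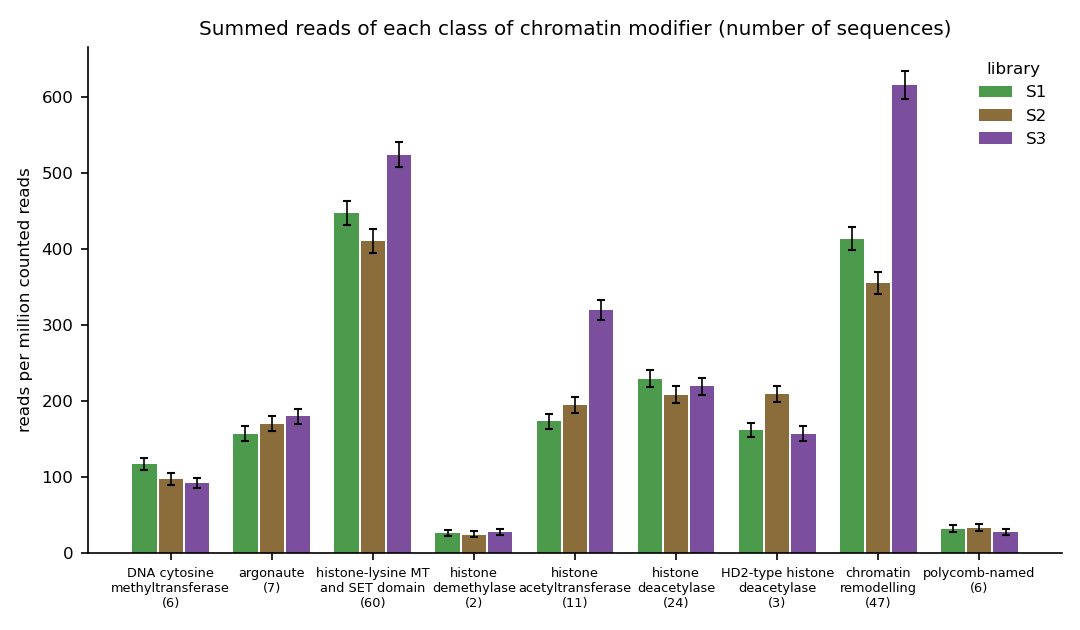
Summed RPM (reads per 1000000 counted reads) of each class in the S1, S2 and S3 libraries, with exact Poisson 95% intervals, which cover counting error only. Chromatin remodelling proteins reach 616 RPM in S3 against 414 in S1 and 355 in S2, and histone acetyltransferases 319 against 173 and 195, while HD2-type deacetylases are highest in S2 at 209.

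Cytosine methyltransferases copy or set up methylation of DNA. The 6 sequences matched only 2 proteins, which differed in direction from S1 to S3. In this class 5 unigenes matched 1 cytosine-5 DNA methyltransferase of pea, and all 5 were lower in S2 than in S1 and lower again in S3. Unigene5611 had an RPKM of 53.3 in S1 against 23.4 in S2 and 13.1 in S3. Unigene68390 had 27.3, 11.2 and 6.74. Both were highest in S1 and lowest in S3, each step having an interval below 1, and in S3 they held 0.245 (0.162 to 0.362) and 0.247 (0.163 to 0.365) of their S1 level.

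Unigene42245 of the same match had 34, 8 and 5 reads, and Unigene45337 had 31, 23 and 6. In the former most of the difference lay between S1 and S2, and in the latter between S2 and S3. The remaining piece, Unigene15363, named after its values were seen, went from an RPKM of 18.7 to 11.9 and 7.80. Their summed reads were 389, 177 and 105, so that the S2 level was 0.471 of S1 (0.392 to 0.564) and the S3 level 0.261 of S1 (0.208 to 0.325). The 5 pieces together are 2010 bases long and match a single protein, so they count as 1 line of evidence and not as 5.

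The other sequence of the class, EZ725790.1, matched DRM1/2 of cotton, a methyltransferase of the DRM family, which in Arabidopsis sets up new methylation under the guidance of small RNAs. It had an RPKM of 32.7 in S1, then 38.2 in S2 and 41.9 in S3, and its S3 level was 1.28 times that of S1 (1.13 to 1.46). S3 and S2 did not differ beyond counting error, at 1.10 (0.968 to 1.24), and after rescaling S3 stood at 0.936 or 0.924 of S2. This 1 sequence carried most reads of the class in S3, and without it the sum of the class stood at 0.261 of S1 in S3 instead of 0.789.

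**Figure D3:**
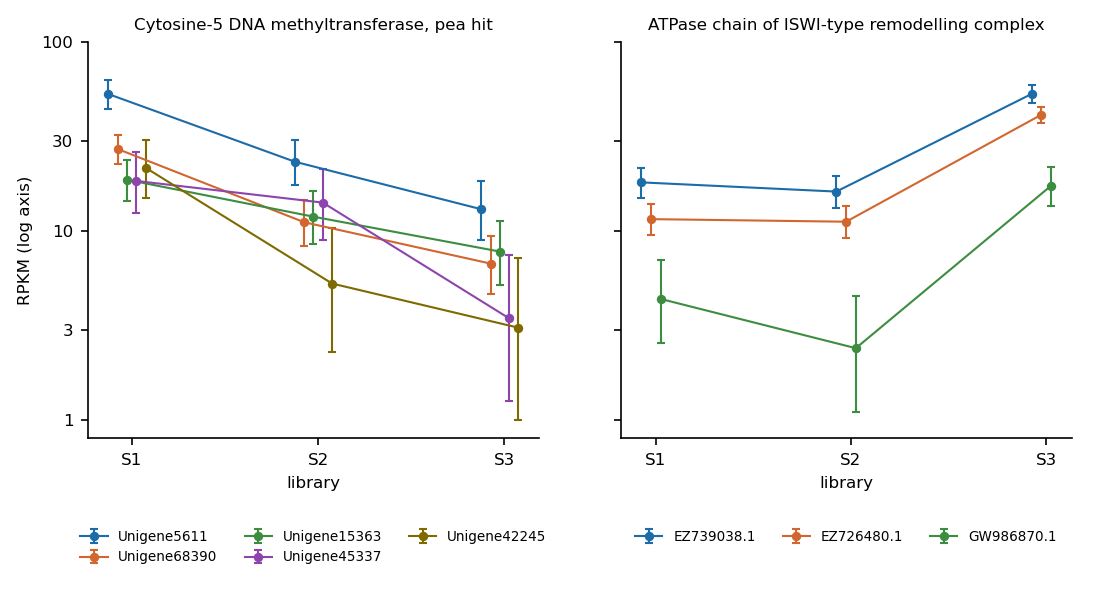
RPKM on a log axis in the S1, S2 and S3 libraries for the 5 unigenes that match the pea cytosine-5 DNA methyltransferase (left) and for the 3 sequences described as an ISWI-type remodelling ATPase (right), with exact Poisson 95% intervals for counting error. All 5 methyltransferase pieces are lower in each later library, and the ATPase sequences, at 4.38 to 18.2 in S1 and 2.40 to 16.2 in S2, reach 17.4 to 53.4 in S3.

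Argonautes load small RNAs, and AGO1 is the main carrier of microRNAs in plants. The pair of unigenes that matched argonaute 1 of pea had the highest levels of all members. Unigene57453 had an RPKM of 199 in S1 gynophores, 225 in S2 and 202 in S3, and Unigene64389 had 135, 159 and 159. Their summed reads were 1.15 times those of S1 in S2 (1.06 to 1.26) and 1.10 times in S3 (1.00 to 1.20), so both were high in every library with small differences. The 2 sequences of the argonaute protein group were much lower in level, with 32, 31 and 62 reads in all.

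The word argonaute also took in 3 sequences of a Dicer-type protein, whose PAZ domain is shared with argonautes and which cuts double-stranded RNA into small RNAs. Together they had 119 reads in S1 against 66 in S2 and 166 in S3. They were thus lowest in S2, at 0.574 of S1 (0.419 to 0.782), and S3 stood 2.35 times above S2 (1.76 to 3.17). The largest of these dips was in Unigene4691, named after its values were seen, with an RPKM of 14.3, 5.41 and 17.3.

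SET domain proteins write methyl groups on histone lysines, and the class of 60 held members that moved in either direction. Between S2 and S3, 7 were higher by 2 times (11.7%, against 18.6% of all sequences) and 5 lower (8.33%, against 11.4%), and between S1 and S3 10 were higher (16.7%, against 21%) and 5 lower (8.33%, against 13.9%), so that each share lay below the background. The highest level belonged to Unigene70294, described as an NSD1-type protein, which in mammals methylates lysine 36 of histone H3. Its RPKM was 55.3, 49.6 and 60.0, with an S3 to S1 ratio of 1.08 (0.933 to 1.26). EZ752987.1, with the same description, had 12.0 in S1, then 23.3 in S2 and 20.1 in S3, at 1.95 times S1 in S2 (1.44 to 2.66), the largest difference of the class between these libraries among members whose interval lay above 1.

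Of the 4 sequences with this NSD1-type match, the other 2 were lowest in S2, as was Unigene70294. Unigene40188 had 47, 22 and 41 reads and Unigene48453 had 47, 17 and 42, both named after their values were seen. Sequences with this description therefore went in opposite directions between S1 and S2, while their sum stood at 0.951 of S1 in S2 (0.836 to 1.08).

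SUVH proteins are methyltransferases of lysine 9 of histone H3, a mark that in Arabidopsis goes with DNA methylation. The 7 sequences so described had 577 reads in S1 gynophores, 508 in S2 and 688 in S3, at 1.15 times S1 in S3 (1.03 to 1.29). The most abundant, Unigene64758, had an RPKM of 40.4, 30.2 and 38.0, and its level in S2 was 0.747 of that in S1 (0.573 to 0.972). The most unequal, Unigene40915, had only 4, 10 and 20 reads. Its S3 to S1 ratio of 4.83 had an interval from 1.62 to 19.4, so the size of this difference is poorly set.

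Among members of the class with at least 30 reads, the largest differences downward between S2 and S3 were those of ATXR6 and EZ756648.1. ATXR6 puts a single methyl group on lysine 27 of histone H3 in Arabidopsis, in chromatin that is being replicated. The sequence so described, GW972756.1, had 59 reads in S1 against 54 in S2 and 14 in S3, and its RPKM went from 13.0 and 12.3 to 2.99. The S3 level was 0.229 of S1 (0.118 to 0.416), while S1 and S2 did not differ beyond counting error, at 0.948 (0.643 to 1.40). EZ756648.1, a SET domain protein with no further description, had 77, 64 and 24 reads, and it too was low only in S3, at 0.350 of S2 (0.209 to 0.568).

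In the other direction, Unigene633, a SET domain protein named after its values were seen, had 59 reads in S1, then 92 in S2 and 189 in S3. It was the only member of the class with both steps upward beyond counting error, and its S3 level was 3.10 times that of S1 (2.30 to 4.22). Unigene43797, the SET domain piece chosen because it was highest in S2, had 12, 16 and 8 reads, and none of its ratios had an interval clear of 1. Lysine-specific demethylases remove the methyl group again, and the 2 sequences of this class match a single protein. Unigene17952 had an RPKM of 16.0, 15.9 and 16.6, with no difference beyond counting error and an S3 to S1 interval from 0.815 to 1.32. Unigene64141 had 13.9, 9.68 and 15.7, lowest in S2.

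All 11 histone acetyltransferases were higher in S3 than in S2, as were 45685 of 81517 sequences with a read. Of the 11, 7 had an interval above 1, a count for which no share of all sequences is given. In this class 10 were highest in S3 (90.9%, against 44.8% of all sequences). Of the 11, 3 had no more than 3 reads in all. The median log2 ratio of S3 to S2 was 0.70, and 3 members were at least 2 times higher (27.3%, against 18.6%). Unigene10405, described as GCN5, the acetyltransferase of the SAGA coactivator complex in yeast, had an RPKM of 30.2 in S1 gynophores, 29.6 in S2 and 48.8 in S3. S1 and S2 did not differ beyond counting error, at 0.983 (0.836 to 1.16), and S3 was 1.65 times S2 (1.43 to 1.91). Unigene7660, the catalytic subunit of a type B acetyltransferase, which acetylates new histones before they are placed on DNA, had 38.4, 46.3 and 56.8. Each of its steps was upward beyond counting error with the deposited values, at 1.21 (1.06 to 1.37) and 1.23 (1.09 to 1.38). After rescaling by the median of ratios or the upper quartile the second step stood at only 1.05 or 1.03.

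The largest difference of the class lay in Unigene71880, a component of an acetyltransferase complex, which was named after its values were seen. It had 151 reads in S1 against 156 in S2 and 515 in S3, and S3 was 3.30 times S1 (2.75 to 3.98). Unigene72003, described only as a histone acetyltransferase, had an RPKM of 21.2, 29.4 and 43.4, again with both steps upward. After median-of-ratios rescaling the summed reads of the class in S3 were still 1.62 times those in S1.

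Histone deacetylases take the acetyl groups off. Of the 24 sequences of this class none differed by 2 times between S1 and S2, against 9.03% of all sequences higher and 9.19% lower. Between S2 and S3, 6 were at least 2 times higher (25%, against 18.6%) and none lower (against 11.4%). Yet the summed reads in S3 were 1.05 times those in S2 (0.977 to 1.13), and 0.897 times after median-of-ratios rescaling. The 2 members of highest mean RPKM were lower in S3 than in S2. Members at least 2 times higher included Unigene67785, a SIN3 sequence named after its values were seen, with an RPKM of 20.3, 11.45 and 25.75. Unigene716, a match to HDA6, which in Arabidopsis silences transposons and ribosomal RNA genes, had an RPKM of 47.6 in S1, then 52.9 in S2 and 35.2 in S3. Its S3 level was 0.665 of S2 (0.575 to 0.769). Of the 3 sequences with this match, 2 were lower in S3 than in S2 and 1 was higher. Their summed reads in S3 stood at 0.693 of S2 (0.606 to 0.793). Unigene71948, a poplar-type deacetylase, had 52.0, 39.1 and 31.4 and was lower at each step, ending at 0.603 of S1 (0.521 to 0.697).

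Against these, the 3 sequences that matched HDA14, a deacetylase found in plastids in Arabidopsis, had 30 reads in S1 gynophores, 37 in S2 and 109 in S3. All 3 were at least 2 times higher in S3 than in S2 (against 18.6% of all sequences) and than in S1 (against 21%). Their sum in S3 was 3.51 times that in S1 (2.33 to 5.45). The 5 sequences of hda1 type summed to 244, 233 and 355 reads, at 1.41 times S1 in S3 (1.19 to 1.66). SIN3 is the scaffold on which deacetylases gather, and its 3 sequences had 213, 148 and 249 reads, with S2 at 0.720 of S1 (0.579 to 0.892).

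HD2-type deacetylases form a family found in plants and are located in the nucleolus. The 3 sequences of this type all matched HDT1, and 2 of them were abundant and had the same shape. EZ723293.1 had an RPKM of 105 in S1 against 137 in S2 and 102 in S3, and EZ721423.1 had 39.4, 49.7 and 39.4. Both were highest in S2, and in S3 they were close to S1, though their summed reads stood at 0.849 of S1 after median-of-ratios rescaling. The S2 to S1 ratios were 1.30 (1.19 to 1.42) and 1.26 (1.03 to 1.55), and the S3 to S2 ratios 0.744 (0.682 to 0.811) and 0.792 (0.645 to 0.971). GW968205.1 had 1 read in S1, then 1 in S2 and 0 in S3, too few to compare.

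Chromatin remodelling proteins use ATP to move nucleosomes, and the 47 members of this class were mostly lower in S2 than in S1 and higher again in S3. Between S1 and S2 none was at least 2 times higher (against 9.03% of all sequences) and 7 were at least 2 times lower (14.9%, against 9.19%). Between S2 and S3 15 were at least 2 times higher (31.9%, against 18.6%) and none lower (against 11.4%). The sum of the class was 414 RPM in S1 gynophores, 355 in S2 and 616 in S3. S2 stood at 0.858 of S1 (0.812 to 0.906) and S3 at 1.74 times S2 (1.65 to 1.83), and both directions were kept after median-of-ratios rescaling, at 0.880 and 1.48.

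The ATPase chain of an ISWI-type complex, which spaces nucleosomes evenly along DNA, was higher in S3 than in both other libraries in every sequence so described. GW986870.1 had 17 reads in S1 against 9 in S2 and 70 in S3. EZ739038.1 and EZ726480.1, with the same kind of description and named after their values were seen, had an RPKM of 18.2, 16.2 and 53.4, and of 11.6, 11.2 and 41.4. In all 3 sequences S1 and S2 did not differ beyond counting error, and S3 was above both. Their summed reads were 243, 212 and 829, with S3 at 3.30 times S1 (2.86 to 3.82).

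Most of the class, 42 sequences, was described only as a subunit of a chromatin remodelling complex, with no word on which subunit. Unigene70117 had the highest level among them, with an RPKM of 25.7 in S1, then 38.6 in S2 and 97.7 in S3. It was higher at each step and reached 3.80 times its S1 level (3.18 to 4.57). Unigene3760 had 14.6, 15.6 and 64.6, so that its whole difference lay between S2 and S3, at 4.15 times (2.84 to 6.21). Unigene10988 had 13, 16 and 71 reads, with the same shape and an S3 to S1 ratio of 5.28 (2.90 to 10.4), the highest ratio from S1 to S3 among members with at least 30 reads.

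Unigene2641 behaved otherwise, with an RPKM of 30.1 in S1 gynophores, 10.4 in S2 and 43.7 in S3. It was low only in S2, at 0.345 of S1 (0.164 to 0.679). EZ744745.1 had 142, 239 and 251 reads, and was the member of the class with the largest ratio from S1 to S2 at 1.74 (1.41 to 2.16), with no further difference to S3. Unigene69433, a match to a SWI/SNF class protein of moss, had 47.1, 41.3 and 40.7, without a difference beyond counting error. Unigene13013, a match to chromatin remodeling 4 of Arabidopsis, had 19, 4 and 7 reads, and its S2 level was 0.218 of S1 (0.0539 to 0.656).

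The word polycomb caught no sequence described as a subunit of a Polycomb complex. Of the 6 sequences, 5 were cysteine-rich polycomb-like proteins, which bind DNA through cysteine-rich repeats, and 1 was an enhancer of polycomb-like protein, whose relative in yeast belongs to an acetyltransferase complex. The cysteine-rich group had 149 reads in S1 against 124 in S2 and 83 in S3, at 0.539 of S1 in S3 (0.407 to 0.709). Its member Unigene3651 had an RPKM of 16.5, 15.9 and 10.5. The enhancer of polycomb-like Unigene59335 went the other way, with 27.1, 38.5 and 40.4, at 1.49 times S1 in S3 (1.09 to 2.05).

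A shape shared by many members was a low point in S2. Of the 166 modifiers, 85 had their lowest RPKM in S2 (51.2%, against 30.6% of all sequences and 29.3% of annotated ones), while 28 had their highest there (16.9%, against 25% of all). The share lowest in S2 was 70.2% among chromatin remodelling proteins, 54.5% among acetyltransferases, 54.2% among deacetylases and 45% among SET domain proteins. It was 0 among DNA cytosine methyltransferases, HD2-type deacetylases and polycomb-named sequences. In the rescaled libraries 44.6% or 41% of the modifiers were lowest in S2, against 26.8% or 25.9% of all sequences.

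**Figure D4:**
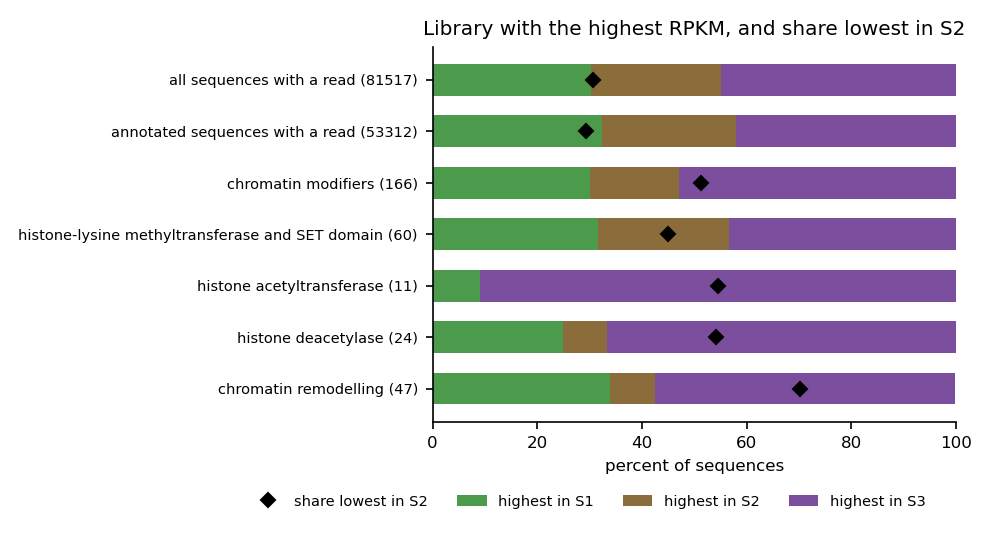
Percent of sequences with their highest RPKM in S1, S2 or S3 (stacked bars) and percent with their lowest RPKM in S2 (diamonds), for all sequences with a read, annotated sequences, all chromatin modifiers and the classes with more than 10 members. The diamond lies at 51.2% for the modifiers and at 70.2% for chromatin remodelling proteins, against 30.6% for all sequences.

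Few of these low points exceeded counting error on both sides. In 14 modifiers the S2 level was below S1 and below S3 with both intervals clear of 1 (8.43%, against 3.56% of all sequences and 4.29% of annotated ones), and in 2, both HDT1, it was above both (1.2%, against 4.43%). Of the 14, 9 were chromatin remodelling proteins, 3 were SET domain proteins, 1 was SIN3 and 1 was of Dicer type. Some match the same protein, so the 14 are not separate lines of evidence. Unigene60929, Unigene17471 and Unigene28419 share 1 match, as do Unigene62242 and Unigene66521, and Unigene40188 and Unigene48453. After rescaling by the median of ratios the count of low points was 7 (4.22%, against 2.47%) and that of high points 5 (3.01%, against 5.66%). A further 4 modifiers were higher at both steps (2.41%, against 3.04%) and 3 were lower at both (1.81%, against 3.22%).

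The low point in S2 was less common among the longest members. It was present in 22 of 43 modifiers shorter than 300 bases (51.2%), in 43 of 71 from 300 to below 600 bases (60.6%), and in 20 of 52 longer ones (38.5%). In annotated sequences of the same lengths the shares were 34%, 30% and 26%. The median log2 ratio of S2 to S1 was -0.37, -0.31 and -0.01 in the 3 length ranges of the modifiers, so among the longest members the median hardly differed between these libraries.

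Pieces of 1 protein offered a look at how far its members go together. Among proteins matched by at least 2 modifiers with 30 reads or more, 31 proteins and 76 pieces in all, the pieces had the same sign of log2 ratio in 18 from S1 to S2, in 24 from S2 to S3 and in 22 from S1 to S3. From S2 to S3, 115 of all 166 modifiers had a log2 ratio above 0. No such count was made for pieces of unrelated proteins, so whether shared matches agree more often was not tested. Among the 4 such pieces of 1 poplar remodelling subunit, Unigene10988 stood apart. It was highest in S3, as given above, while the others, named after their values were seen, were lowest in S2. Unigene60929 had 82, 30 and 68 reads, Unigene48194 had 61, 22 and 38, and Unigene17471 had 27, 8 and 21. When reads were summed by matched protein, 50 of 101 proteins were lowest in S2. Other sequences were not summed in this way, so this count cannot be set against a background.

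Other genes of chromatin and silencing, taken from a list of words that the modifiers' rule does not hold, were also counted. Of 106 such sequences 24 were at least 2 times higher in S3 than in S2 (22.6%, against 18.6% of all sequences) and 2 were lower (1.89%, against 11.4%), with a median log2 ratio of 0.62. Between S1 and S2 1 was higher and 7 lower (0.943% and 6.6%, against 9.03% and 9.19%), with a median of -0.05. Dicer sequences, 12 in number, had 791 reads in S1, then 830 in S2 and 1929 in S3. RNA-dependent RNA polymerases, which make the double strands that Dicer cuts, had 1094, 972 and 1812. Bromodomain proteins, which read acetylated histones, had 2645, 2904 and 4674, and jumonji proteins, which remove methyl groups, had 345, 296 and 490. These 4 groups were highest in S3. The summed reads of the 5 sequences with DNA methyltransferase in the description were instead highest in S1, at 1716, 1276 and 809. Of these, the 2 described as an associated protein went the other way in sum, with 79, 85 and 203 reads. Sequences of chromatin assembly factor had 604, 518 and 558 reads, and S3 did not differ from S1 beyond counting error.

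Histones and the genes of cell division went differently. Core histone H3 sequences had 6292 reads in S1 gynophores, 7132 in S2 and 3295 in S3, so that S3 stood at 0.431 of S2 (0.414 to 0.450), whereas linker histone H1 sequences stood at 1.62 times S2 (1.58 to 1.65). The 71 cell cycle and DNA replication sequences with a read had a median log2 ratio of S3 to S1 of -0.77, with 5 at least 2 times higher (7.04%, against 21% of all sequences) and 23 lower (32.4%, against 13.9%). The pea-type DNA methyltransferase, ATXR6 and the cysteine-rich polycomb-like group were lower in S3 than in S1. Core histone H3 sequences, at 0.506 of S1, and the median cell cycle sequence were lower too. In S3, H2A, H2B and H4 sequences stood at 0.609, 0.77 and 0.58 of S1, but H1 sequences at 1.78 times S1. Summed reads of all core and linker histones were 1.09 times S1 (1.075 to 1.111). The part of dividing cells in these values was not tested. Between S1 and S2 the pea-type methyltransferase was lower, the cell cycle sequences had a median log2 ratio of -0.26 with 2 at least 2 times higher and 10 lower (2.82% and 14.1%, against 9.03% and 9.19%), and H3 sequences stood at 1.17 times S1 (1.13 to 1.21).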

How the data were processed

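Poly(A) RNA of S1, S2, and S3 gynophores was sequenced on an Illumina HiSeq instrument with 1 library per stage. Read counts were deposited by the authors as reads that align to a single place of a single sequence, among assembled unigenes and public peanut sequences. RPKM values were deposited by the authors as these counts divided by sequence length and library total, and were recomputed here to within 8.42e-09 (relative deviation). The percent of each sequence covered by reads was also deposited by the authors. The aligner and its settings were not given in the sources used here. No peanut genome was used, and 0 member identifiers matched the supplied gene table, so neither positions nor sequences are given.

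Ratios were taken on counts per library total, and counts of members past 2 times on RPKM + 1 (pseudocount 1). Exact Poisson intervals of levels and Clopper-Pearson intervals of ratios have a level of 95% and cover counting error only. They compare libraries, not stages, so no p-value is given. The members and lists were chosen with earlier results of these data known. Members were named by a rule: the 2 of highest mean RPKM in each class, every member of a class of at most 4, and, with at least 30 reads, the 4 largest rises and falls from S1 to S3, the 3 largest at each of the steps S1 to S2 and S2 to S3, and the 2 most different in S2 from the higher of S1 and S3. Members outside it are marked as named after their values were seen, or are given as part of a counted group. The cell type markers and lists of other genes are words in the descriptions. The steps were tested on simulated data. Alternatives were other library scalings, a pseudocount of 0.1, limits on RPKM, reads and length, unigenes only, a limit of 1.5 times, and, added after seeing the data, reads summed by matched protein, members of doubtful description left out, and other scalings for the low points in S2. The software was matplotlib 3.10.9, scipy 1.17.1, pandas 2.3.3 and numpy 2.4.6 under Python 3.11.15.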

Additional observations from a re-analysis of the deposited data

How the results depend on the processing

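No paired analysis was possible because there was only 1 library for each stage, and no replicate could be left out. Rescaling by the median of ratios or the upper quartile changed the count of modifiers higher in S3 than in S2 from 33 to 18 and of those lower from 6 to 10. The median log2 ratio of S3 to S2 was then 0.268 or 0.251, and that of S3 to S1 was -0.0128 or 0.0017. The summed reads of all modifiers in S3 were 1.08 or 1.07 times those in S2, and 1.08 or 1.09 times those in S1. The S2 to S1 ratio of that sum, 0.969, turned to 1.02 with the upper quartile. Low points in S2 beyond counting error were 7 under either rescaling, and high points 5 or 7.

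With a pseudocount of 0.1, S2 had 5 modifiers higher and 26 lower than S1, and 11 were lower in S3 than in S2. Among those with at least 30 reads 1 was higher in S2 than in S1 (0.752%, against 7.525% of annotated sequences with at least 30 reads) and 18 were highest in S2. Among unigenes 3 were lower in S3 than in S2 and 17 were highest in S2, and the summed reads stood at 0.903 of S1 in S2 and at 1.33 times S2 in S3. Among sequences of at least 300 bases S2 had 0 higher and 6 lower than S1, 10 were lower in S3 than in S1, and 33 were highest in S1. At 1.5 times, S2 had 10 higher and 41 lower than S1, S3 had 69 and 15 against S2, and 48 and 30 against S1. At 2 times with the interval also on that side of 1, 0 were higher in S2 than in S1, against 5.63% of all sequences. Summed by matched protein, 4 were lower in S2 than in S1, 18 were higher in S3 than in S2, 12 were higher and 10 lower in S3 than in S1, and 27, 16 and 58 were highest in S1, S2, and S3, with 50 lowest in S2. The fewer sequences tested lower these counts in part. Where no share of all or annotated sequences stands beside a count in this paragraph, none is given for that setting. Such a count cannot be set against a background, and it shows only how the count of modifiers depends on the setting.

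Depth limits single members, since 33 of 166 had under 30 reads over the libraries and 88 had 100 or more.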

Other observations

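Several well known chromatin proteins carried descriptions that the words of the rule do not hold, and their values, looked up after those of the members had been seen, are given without a test. Enhancer of zeste is the catalytic subunit of Polycomb repressive complex 2, which trimethylates lysine 27 of histone H3, and plant forms of it hold back endosperm growth before fertilization. The 7 sequences so described had 234 reads in S1 against 290 in S2 and 802 in S3, and the S3 sum was 3.31 times that of S1 (2.86 to 3.85). Unigene764 had most of them, with an RPKM of 8.86 in S1, then 16.8 in S2 and 67.9 in S3. Unigene60430, with 19, 22 and 109 reads, and Unigene41566, with 8, 16 and 80, had the same shape. Unigene64852, with 98, 99 and 43 reads, and Unigene47101, with 27, 17 and 13, went the other way, so the sequences under this name did not move together. EMF2, another subunit of that complex, had 120, 124 and 213 reads in JK173603.1.

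Chromomethylase 2, which methylates cytosines outside CG sites, had 205 reads in S1 gynophores, 104 in S2 and 99 in S3 in Unigene70955, at 0.467 of S1 in S3. The sequences described as a DNA methyltransferase of poplar had 1637, 1191 and 606 reads, at 0.358 of S1 in S3. Of these, Unigene45 had 1098, 719 and 387 reads and EZ724797.1 had 539, 472 and 218, both lowest in S3. EZ740509.1, described as a protein associated with DNA methyltransferase 1 and not as the enzyme, had 71, 76 and 200 reads. EZ744758.1, described as AGO1-1, had 462, 530 and 592 reads, close to the course of the argonaute 1 members.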
